A study of Mus musculus with 2 samples.

Results

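The integrins and laminins of the mouse aorta were described in single cells of 2 kinds of mice: knock-in mice, in which the matrix Gla protein (MGP) is mutated, and wild-type mice. The set was taken by symbol alone, as all genes whose symbol starts with Itga, Itgb or Lam followed by a, b or c and a digit. It holds 42 of the 32285 genes counted. Of the 31 Itg symbols, 26 are integrin subunits and 5 are not (Itgb1bp1, Itgb1bp2, Itgb3bp, Itgbl1 and Itgb2l). The other 11 genes are laminin chains. Integrins are receptors in the cell membrane made of an alpha and a beta subunit, and they tie the cytoskeleton to the matrix outside the cell. Laminins are secreted trimers of an alpha, a beta and a gamma chain that build the basement membrane around smooth muscle cells and under the endothelium. In arteries, integrins of smooth muscle hold the cells to elastic fibres, collagen and laminin and pass on the pull of the vessel wall.

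Per the labels, the aortas came from knock-in and wild-type mice of both sexes at 1 month of age. The adventitia had been dissected away, and dead cells had been sorted out. Each genotype is 1 droplet library and both carry the same batch label, so no difference has a replicate check and no test between genotypes was possible. The number of mice in a library, the altered residue and the number of altered alleles are unknown here. All intervals are 95% intervals of counting error. They do not cover the spread between mice or libraries.

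The knock-in library held 85831737 UMIs (unique molecular identifiers, 1 per captured RNA molecule) and the wild-type library 79626104. Filtering kept 6089 knock-in cells, whose median was 11653 UMIs, and 3588 wild-type cells, whose median was 20395.5 UMIs. Of their barcodes, 4 occurred in both libraries. Sex was called per cell, and 45.9% of knock-in and 32.5% of wild-type cells were called female. Male calls made up 33.6% of knock-in and 56.7% of wild-type cells. Neither sex was called in 18.8% of knock-in and 8.70% of wild-type cells, and both in 1.76% and 2.12%. Ratios over cells of both sexes are not balanced for this mix. Cells were clustered without the integrin and laminin genes, and the clusters were named from marker lists. Cells like smooth muscle (SMC-like), with Myh11, Acta2 and Tagln among their leading genes, made up 38.2% of knock-in cells (37.0 to 39.5%) and 6.66% of wild-type cells (5.87 to 7.53%). Fibroblast-like cells made up 48.8% of knock-in cells (47.6 to 50.1%) and 75.9% of wild-type cells (74.5 to 77.3%), although the label says that the adventitia was removed. Macrophage or monocyte-like cells numbered 277 in the knock-in and 313 in the wild-type library. Endothelial-like cells numbered 45 in the knock-in and 63 in the wild-type library. Of the rest, 464 knock-in and 248 wild-type cells fell in 4 clusters that kept no name and are called by their leading genes. Each level is in CPM, which divides a gene's UMIs by the total of the same cells. They are not scaled to gene length, so each gene is compared with itself across cells. Whether the counting used strand is unknown here. In GENCODE vM21, 4 of the 42 genes overlap another gene on the same strand, among them Itga1 (Pelo). On the opposite strand 14 do, among them Itga4 (Cerkl), Itga7 (Mettl7b), Itga8 (E030013I19Rik), Itga9 (Gm2415) and Lamc3 (Gm13441). Counts of such genes are uncertain, since they may hold reads of the partner.

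Of the 42 genes, 3 are given first, each of which had its highest level in a different cell class in both libraries. Itga8, whose product pairs with integrin beta 1 as a receptor for fibronectin and nephronectin, reached 1956 CPM in knock-in and 1854 CPM in wild-type SMC-like cells. In fibroblast-like cells Itga8 stood at 133 CPM in the knock-in and 106 CPM in the wild-type library. Lama2, the alpha chain of the laminin around muscle fibres, had the reverse order, with 767 CPM in knock-in and 940 CPM in wild-type fibroblast-like cells, against 95.8 CPM in knock-in and 99.5 CPM in wild-type SMC-like cells. Itgam, the alpha subunit of the complement receptor of myeloid cells, was at 237 CPM in knock-in and 183 CPM in wild-type macrophage or monocyte-like cells, and below 1 CPM in SMC-like and fibroblast-like cells of both libraries. Promoter windows of these 3 genes, which mark 3 classes, and of Itga5, whose libraries are compared within SMC-like cells below, are given next. They come from RefSeq (GRCm38.p6), run 5′ to 3′ on the strand of the gene, span 300 bases around the start of the transcript and lie at chr2:12301895-12302194 (minus strand, Itga8), chr10:27616893-27617192 (minus strand, Lama2), chr7:128062390-128062689 (plus strand, Itgam) and chr15:103366742-103367041 (minus strand, Itga5). Capitals mark matches to the motifs searched on both strands.
Itga8: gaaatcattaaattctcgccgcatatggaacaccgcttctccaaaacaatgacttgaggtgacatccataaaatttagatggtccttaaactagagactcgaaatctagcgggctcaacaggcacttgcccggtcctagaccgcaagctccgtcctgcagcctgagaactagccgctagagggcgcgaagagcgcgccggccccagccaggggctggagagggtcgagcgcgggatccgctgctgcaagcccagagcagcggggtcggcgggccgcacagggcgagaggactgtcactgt
Lama2: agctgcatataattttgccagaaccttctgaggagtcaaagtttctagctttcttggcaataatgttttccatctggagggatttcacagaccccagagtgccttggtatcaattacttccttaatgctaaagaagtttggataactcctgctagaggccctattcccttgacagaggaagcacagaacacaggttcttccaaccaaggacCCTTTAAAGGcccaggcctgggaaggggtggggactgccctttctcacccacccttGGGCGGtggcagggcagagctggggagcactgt
Itgam: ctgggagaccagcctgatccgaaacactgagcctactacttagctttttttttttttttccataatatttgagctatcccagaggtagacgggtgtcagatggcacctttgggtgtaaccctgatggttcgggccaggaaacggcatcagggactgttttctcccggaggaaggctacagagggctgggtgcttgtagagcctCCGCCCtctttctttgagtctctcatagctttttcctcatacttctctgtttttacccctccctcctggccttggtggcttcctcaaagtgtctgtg
Itga5: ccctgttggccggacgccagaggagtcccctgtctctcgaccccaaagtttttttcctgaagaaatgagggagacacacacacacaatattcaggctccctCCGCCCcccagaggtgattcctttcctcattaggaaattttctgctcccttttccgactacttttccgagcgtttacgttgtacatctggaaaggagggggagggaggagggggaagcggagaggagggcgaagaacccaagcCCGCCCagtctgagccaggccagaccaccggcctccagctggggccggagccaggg
The motifs were the CArG box, which serum response factor binds in smooth muscle genes, the TATA box (TATAAA), the GC box of Sp1 (GGGCGG) and the AP-1 site (TGANTCA), and none of them overlaps another in these 4 windows. The table held 30 windows for 27 of the 42 genes. A CArG box was found in 2 of the 30 windows, those of Itgb6 and Lama2, and in 1.63% of all 32851 windows. GGGCGG was found in 13 of the 30 windows, among them those of Lama2, Itgam and Itga5, and in 35.7% of all windows. TATAAA was in 0 of the 30 windows and in 13.6% of all, and TGANTCA in 3 of the 30 and in 7.81% of all. The window of Itga8 held none of the 4 motifs. These matches describe letters in a window and are no binding sites.

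**Figure D1:**
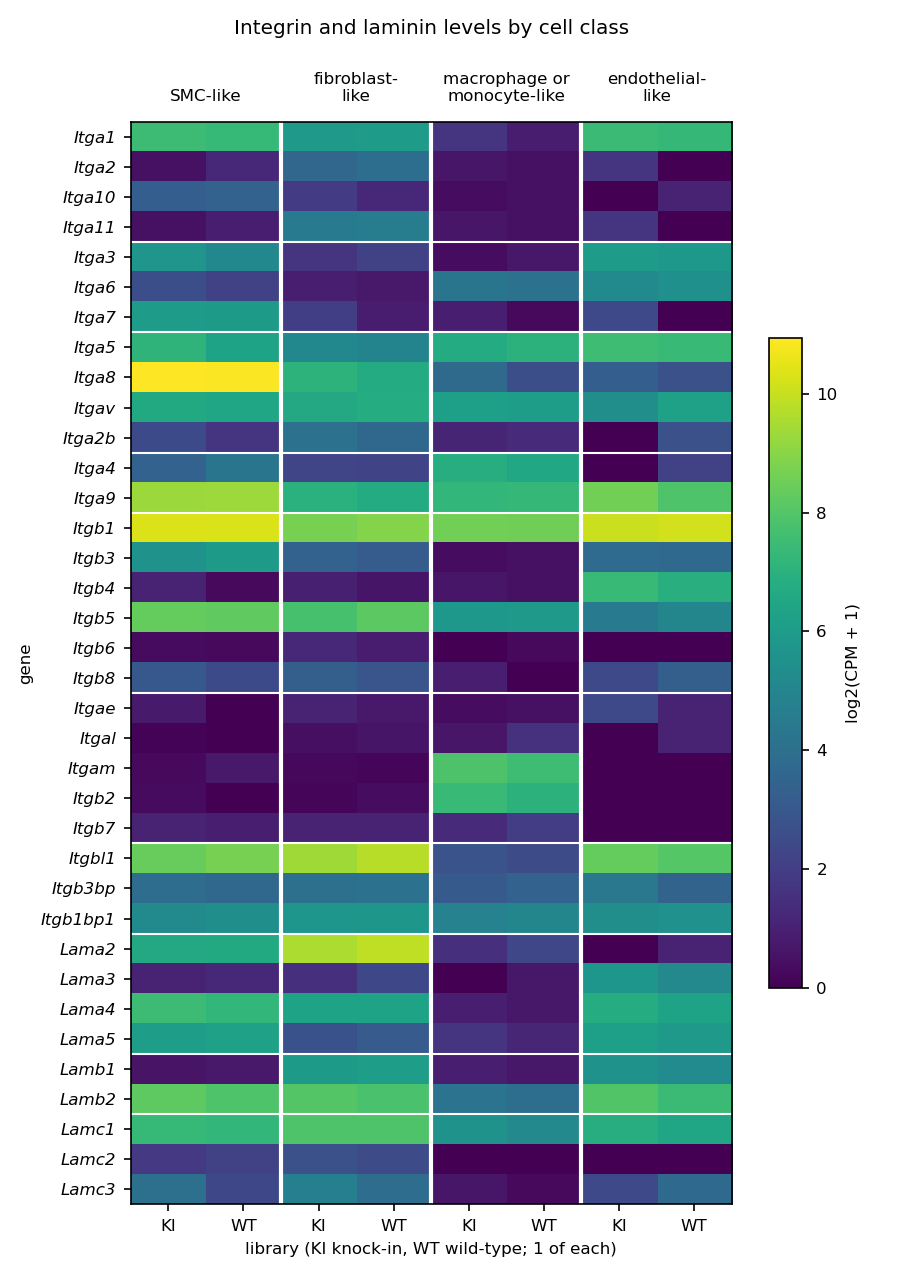
Each row is 1 integrin or laminin gene with at least 100 UMIs over both libraries, grouped by role, and each column is 1 library (KI, knock-in; WT, wild-type) within 1 cell class. Colour is log2(CPM + 1): Itga8 is brightest in SMC-like cells, Lama2 and Itgbl1 in fibroblast-like cells, and Itgam and Itgb2 show only in macrophage or monocyte-like cells.

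Among the integrin alpha subunits, SMC-like cells also held the highest levels of Itga9 and Itga7 of the 4 classes, in both libraries. Itga9, whose partner is integrin beta 1 and whose ligands include tenascin-C and VCAM1, was at 626 CPM in knock-in and 643 CPM in wild-type SMC-like cells, against 124 CPM in knock-in and 105 CPM in wild-type fibroblast-like cells. Itga7, the alpha subunit of the laminin receptor of muscle, was at 62.3 CPM in knock-in and 60.6 CPM in wild-type SMC-like cells and below 5 CPM in the other 3 classes of both libraries. Itga1, a collagen receptor subunit, was near the same level in SMC-like cells (178 CPM knock-in, 159 CPM wild-type) and endothelial-like cells (174 CPM knock-in, 155 CPM wild-type). In fibroblast-like cells Itga1 was at 58.2 CPM in the knock-in and 63.0 CPM in the wild-type library. Itga10, at lower levels, was likewise higher in SMC-like cells (8.58 CPM knock-in, 9.73 CPM wild-type) than in fibroblast-like cells (2.79 CPM knock-in, 1.39 CPM wild-type). The remaining collagen receptor subunits, Itga11 and Itga2, had the reverse order. Itga11 was at 21.4 CPM in knock-in and 23.9 CPM in wild-type fibroblast-like cells, and below 1 CPM in SMC-like cells of both libraries. Itga2 was at 11.1 CPM in knock-in and 14.4 CPM in wild-type fibroblast-like cells, and at 0.424 CPM in knock-in and 1.33 CPM in wild-type SMC-like cells.

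Among the beta subunits, Itgb1, the common partner of most alpha subunits, was at 1301 CPM in knock-in and 1276 CPM in wild-type SMC-like cells. Endothelial-like cells came next, with 1061 CPM in the knock-in and 1154 CPM in the wild-type library, and fibroblast-like cells had 414 CPM in the knock-in and 475 CPM in the wild-type library. Itgb5, a partner of alpha v, was at 327 CPM in knock-in and 308 CPM in wild-type SMC-like cells and at 56.6 CPM in knock-in and 56.9 CPM in wild-type macrophage or monocyte-like cells. Itgav itself, the alpha v subunit, was spread more evenly, at 98.4 CPM in knock-in and 85.1 CPM in wild-type SMC-like cells, at 95.7 CPM in knock-in and 107 CPM in wild-type fibroblast-like cells, and at 72.1 CPM in knock-in and 67.7 CPM in wild-type macrophage or monocyte-like cells. Itgb3, which also pairs with alpha v on vascular cells, was at 46.9 CPM in knock-in and 60.6 CPM in wild-type SMC-like cells, against 9.92 CPM in knock-in and 8.13 CPM in wild-type fibroblast-like cells. Itgb4, the beta subunit of the hemidesmosome integrin, was a gene of endothelial-like cells here, at 165 CPM in the knock-in and 116 CPM in the wild-type library, and below 2 CPM in the other 3 classes. Itgb2, the shared beta subunit of leukocyte integrins, was at 165 CPM in knock-in and 129 CPM in wild-type macrophage or monocyte-like cells. Its levels in SMC-like and fibroblast-like cells were below 1 CPM, as were those of Itgam.

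Of the laminin chains, Lama4 and Lama5 were higher in SMC-like than in fibroblast-like cells, and Lama2, Lamb1, Lamc1 and Lamc3 were lower, in both libraries. Lama5, a chain of vascular basement membranes, was at 68.3 CPM in knock-in and 75.4 CPM in wild-type SMC-like cells, against 5.78 CPM in knock-in and 7.75 CPM in wild-type fibroblast-like cells. Lama4, found in vascular basement membranes, was at 177 CPM in knock-in and 148 CPM in wild-type SMC-like cells, against 81.3 CPM in knock-in and 80.9 CPM in wild-type fibroblast-like cells. Lamb1 was near 0 in SMC-like cells, with 15 UMIs (0.489 CPM) in 2329 knock-in cells and 3 UMIs (0.663 CPM) in 239 wild-type cells, and was at 61.1 CPM in knock-in and 69.7 CPM in wild-type fibroblast-like cells. Lamb2, the other widely used beta chain, was measured in both classes, at 302 CPM in knock-in and 239 CPM in wild-type SMC-like cells, and at 256 CPM in knock-in and 218 CPM in wild-type fibroblast-like cells. Lamc1, the gamma chain of most laminins, was at 161 CPM in knock-in and 152 CPM in wild-type SMC-like cells and at 244 CPM in knock-in and 239 CPM in wild-type fibroblast-like cells. Lama3, a chain of epithelial laminin, was at 52.1 CPM in knock-in and 34.9 CPM in wild-type endothelial-like cells and below 5 CPM in the other 3 classes.

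Free RNA, measured in barcodes of at most 100 UMIs, was estimated at 0.858% of knock-in and 0.779% of wild-type UMIs in SMC-like cells, and at 1.63% of knock-in and 1.16% of wild-type UMIs in fibroblast-like cells. At these shares it would give fibroblast-like cells 14.0 CPM of Itga8 in the knock-in and 2.25 CPM in the wild-type library, below the levels measured there. For Lama2 in SMC-like cells it would give 2.49 CPM in the knock-in and 3.12 CPM in the wild-type library, again below the levels measured.

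Known integrin pairs and laminin trimers were then counted by the RNA of their subunits. An assembly was counted where every subunit reached 20 CPM in both libraries, a threshold on levels that are not scaled to gene length. SMC-like cells met it for 9 of 24 integrin pairs: beta 1 with alpha 1, 3, 5, 7, 8, 9 or v, and alpha v with beta 3 or beta 5. Fibroblast-like cells met it for 7 pairs, without the alpha 3, alpha 7 and beta 3 pairs and with alpha 11 and beta 1. Of 14 laminin trimers, SMC-like cells met it for 3, in which beta 2 and gamma 1 join alpha 2, alpha 4 or alpha 5. Fibroblast-like cells met it for 4, in which gamma 1 and either beta 1 or beta 2 join alpha 2 or alpha 4. Macrophage or monocyte-like cells met it for 6 integrin pairs, among them alpha M with beta 2, and for 0 laminin trimers. Endothelial-like cells met it for 8 integrin pairs, among them alpha 6 with beta 4, and for 5 trimers, among them that of alpha 3, beta 2 and gamma 1.

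Levels also varied within the fibroblast-like class and in the clusters without a name, whose genes were picked after their values were seen. Of the 3 fibroblast-like clusters, the one led by Tmem100 and Opcml held Lamb1 at 140 CPM in the knock-in and 137 CPM in the wild-type library, and Lamc1 at 417 CPM in the knock-in and 366 CPM in the wild-type library. In the cluster led by Pex5l and Fmod, Lamb1 was at 36.6 CPM in the knock-in and 37.5 CPM in the wild-type library, while Lama2 reached 1072 CPM in the knock-in and 1279 CPM in the wild-type library. Itga8 was at 220 CPM in knock-in and 195 CPM in wild-type cells of that cluster. In the cluster led by Bace2 and Entpd2, Itga8 was at 42.4 CPM in the knock-in and 11.8 CPM in the wild-type library. SMC markers summed to 954 CPM in knock-in and 119 CPM in wild-type cells of the same cluster. The median depth there was 4848.5 UMIs in the knock-in and 13553.5 UMIs in the wild-type library. The part of these markers and of depth in the Itga8 difference was not tested.

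The unnamed cluster led by Mdga2 and Chrm3, in which Rgs5 was also a leading gene, stood apart in its laminins. Lamc3, a gamma chain of narrow distribution, was at 215 CPM in 173 knock-in cells and 168 CPM in 53 wild-type cells there, above every other cluster. Itgb8, which with alpha v binds the latent form of TGF-beta, was at 48.3 CPM in knock-in and 30.9 CPM in wild-type cells of the cluster, also its highest level among the clusters. The same cells held Lama2 at 780 CPM in the knock-in and 980 CPM in the wild-type library, and Itga8 at 1128 CPM in the knock-in and 602 CPM in the wild-type library. SMC markers there summed to 11394 CPM in knock-in and 5765 CPM in wild-type cells, and the part of these markers in the Itga8 difference was not tested. The unnamed cluster led by Sncg and Timp4 held Lama5 at 129 CPM in the knock-in and 118 CPM in the wild-type library, and Itga5 at 209 CPM in the knock-in and 155 CPM in the wild-type library. The mixed immune cluster led by Trbc2 and Lyz1 held Itgb7, a beta subunit of lymphocytes and mast cells, at 30.7 CPM in 48 knock-in cells and 87.1 CPM in 48 wild-type cells. Fibroblast markers in that cluster summed to 382 CPM in the knock-in and 5521 CPM in the wild-type library, and T or NK markers to 2444 CPM in the knock-in and 89.4 CPM in the wild-type library. Mast cell markers summed to 1619 CPM in the knock-in and 2470.0 CPM in the wild-type library, macrophage or monocyte markers to 2808 CPM in the knock-in and 8598 CPM in the wild-type library, and cycling markers to 3006 CPM in the knock-in and 295 CPM in the wild-type library. Neutrophil markers summed to 1.98 CPM in the knock-in and 1086 CPM in the wild-type library. The part of these sums in the Itgb7 levels was not tested.

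**Figure D2:**
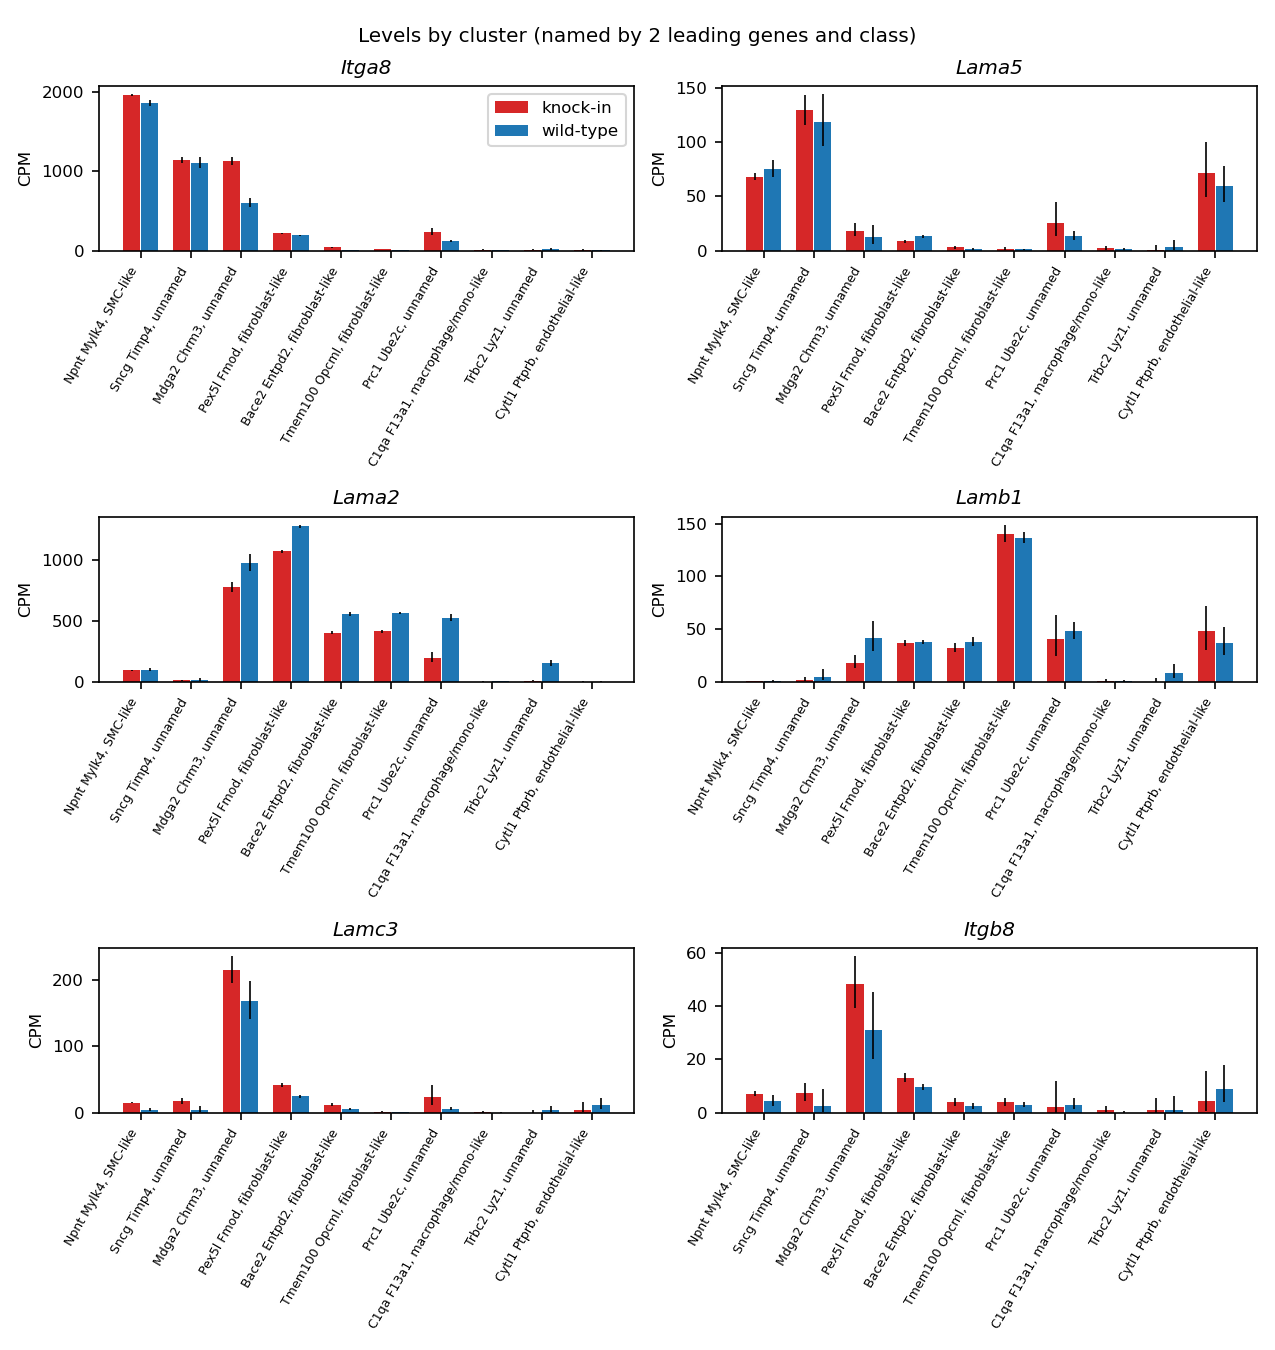
Bars give CPM of 6 genes in each of the 10 clusters, knock-in left of wild-type, with 95% Poisson intervals as lines. Itga8 is highest in the SMC-like cluster, Lama5 in the cluster led by Sncg and Timp4, Lama2 in the cluster led by Pex5l and Fmod, Lamb1 in that led by Tmem100 and Opcml, and Lamc3 and Itgb8 in that led by Mdga2 and Chrm3.

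Within SMC-like cells, 18 of 25 measured genes of the set lay within 1.5-fold between the libraries. A gene counted as measured with at least 50 UMIs over both libraries and as apart at 1.5-fold or more. Of the 42 genes 25 were measured, 6 were higher and 1 was lower in the knock-in library (28% apart). Among all 12024 genes measured in these cells, 15.7% were apart, 9.02% higher and 6.67% lower. The median log2 ratio (knock-in over wild-type) was 0.09 for the 25 genes and -0.03 for all genes. Of the 15 integrin subunits measured 6 were apart (40%), and of the 7 laminin chains 1 (14.3%). Genes under 1.5-fold included Itgb3, with a log2 ratio of -0.37, and Lamb2, with 0.34 (0.25 to 0.43). For 4 subunits that were not apart the log2 ratio was 0.08 for Itga8 (0.04 to 0.11), 0.04 for Itga7 (-0.14 to 0.23), -0.04 for Itga9 (-0.10 to 0.02) and 0.03 for Itgb1 (-0.01 to 0.07). The 3 laminin alpha chains measured stayed within 1.5-fold, with log2 ratios of 0.25 for Lama4 (0.14 to 0.37), -0.05 for Lama2 (-0.20 to 0.09) and -0.14 for Lama5 (-0.31 to 0.03). The sign for Lama5 depended on sex: the female ratio was -0.55 (-0.78 to -0.31), the male ratio 0.20 (-0.06 to 0.46). Over the alternatives Lama2 ran from -0.54 to 0.17 and Lama4 from 0.07 to 0.41.

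Itga5, the alpha subunit of the fibronectin receptor, was the gene apart with the most UMIs. It had 4183 UMIs and 136 CPM in knock-in SMC-like cells, against 360 UMIs and 79.6 CPM in wild-type SMC-like cells, a log2 ratio of 0.78 (0.62 to 0.94). The ratio had the same sign in cells of each sex, at 0.94 in female and 0.49 in male cells, the second of which is under 1.5-fold, and was 1.17 among cells of 8000 to 20000 UMIs. Itga3, a laminin receptor subunit, was at 50.9 CPM in knock-in and 33.8 CPM in wild-type cells, just past 1.5-fold with a log2 ratio of 0.59 (0.35 to 0.84). In female cells the ratio was 0.62 and in male cells 0.49. Over all alternatives it lay between 0.49 and 0.88 and was under 1.5-fold in several of them. Both genes were higher in the knock-in library among cells of either sex.

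The other genes apart in SMC-like cells lay below 20 CPM and are named after their values were seen. Lamc3 had 471 UMIs (15.4 CPM) in knock-in and 19 UMIs (4.20 CPM) in wild-type cells, a log2 ratio of 1.87 (1.21 to 2.62). With each library clustered on its own, the wild-type class held 315 cells instead of 239, and the Lamc3 ratio was -0.77. Itga4, which pairs with beta 1 as a receptor for VCAM1 and fibronectin, was the gene lower in the knock-in library, at 9.68 CPM against 17.9 CPM in the wild-type library, a log2 ratio of -0.89 (-1.25 to -0.51). Among cells of 8000 to 20000 UMIs its ratio was -0.19. Itgb8 had 220 UMIs in knock-in and 20 in wild-type cells, a log2 ratio of 0.70 (0.04 to 1.44), which was 0.09 with each library clustered on its own and 0.15 among cells of 8000 to 20000 UMIs. Itga6 had 161 UMIs in knock-in and 15 in wild-type cells (0.66, -0.10 to 1.53), and Itga2b 138 in knock-in and 10 in wild-type cells (1.03, 0.10 to 2.12). The interval of Itga6 includes 0, and in male cells its ratio was -0.41. The fibroblast markers in SMC-like cells summed to 3842 CPM in the knock-in and 5834 CPM in the wild-type library, with 4 of 9 lower, and the SMC markers to 38489 CPM in the knock-in and 41730 CPM in the wild-type library. The median mitochondrial share of SMC-like cells was 4.69% in the knock-in and 3.32% in the wild-type library, and their median depth 12252 UMIs in the knock-in and 17896 UMIs in the wild-type library. The part of these values in the ratios was not tested.

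**Figure D3:**
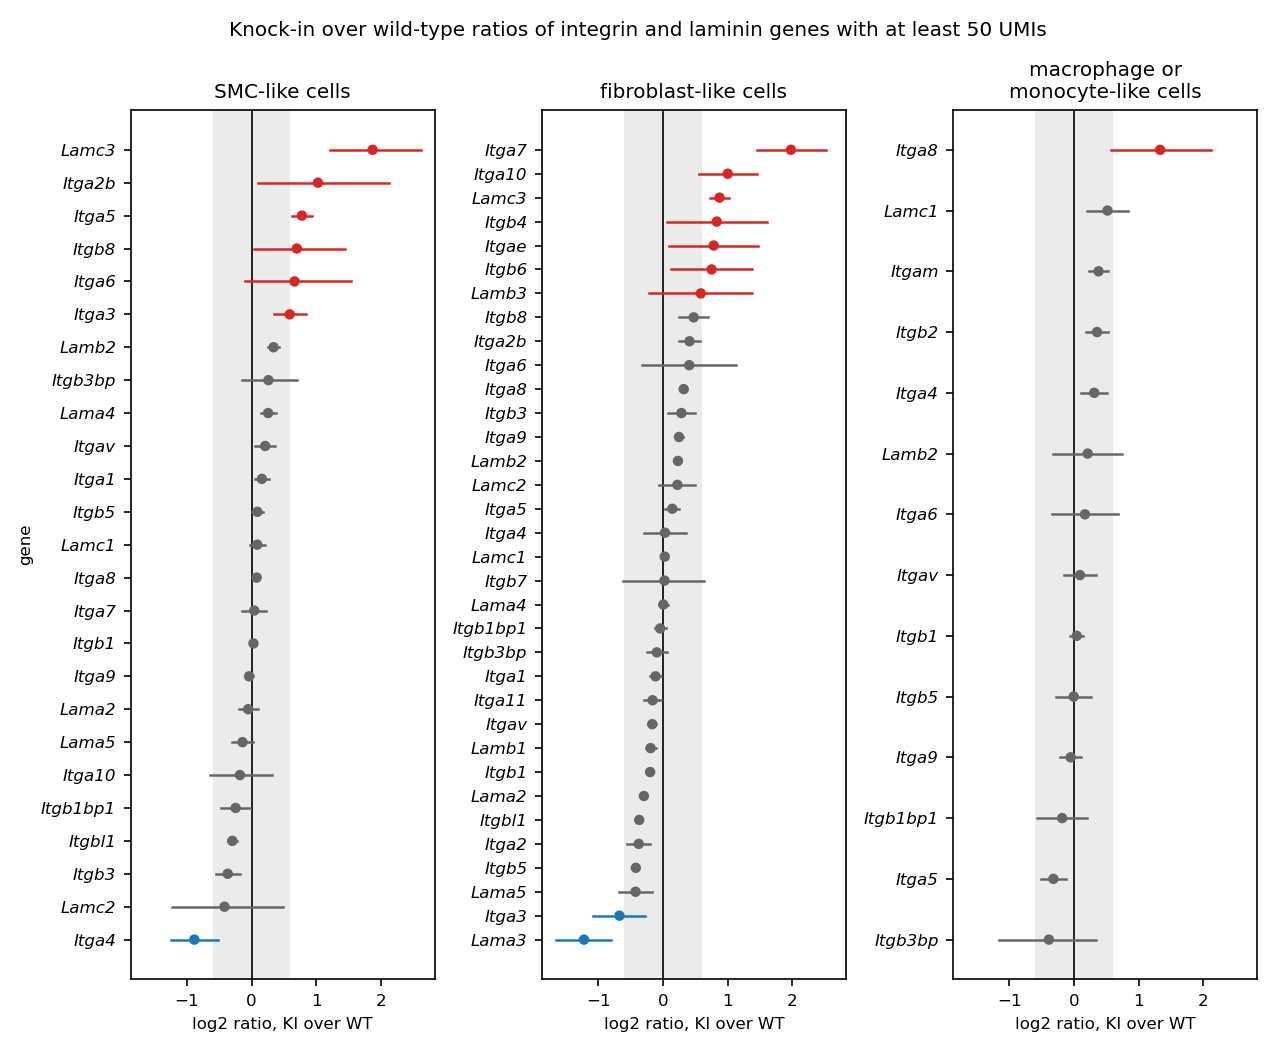
Points are log2 CPM ratios (knock-in over wild-type) with 95% counting intervals, for each integrin or laminin gene with at least 50 UMIs in the class; the grey band spans ratios under 1.5-fold. Red points are higher and blue points lower in the knock-in library by 1.5-fold or more: 6 and 1 genes in SMC-like cells, 7 and 2 in fibroblast-like cells, 1 and 0 in macrophage or monocyte-like cells.

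The fibroblast-like class was made up differently in the libraries. The cluster led by Bace2 and Entpd2 gave it 1182 knock-in and 630 wild-type cells, that led by Pex5l and Fmod 1331 knock-in and 1315 wild-type cells, and that led by Tmem100 and Opcml 461 knock-in and 780 wild-type cells. Lamb1, close in both libraries within 2 of these clusters as given above, was at 61.1 CPM in the knock-in and 69.7 CPM in the wild-type library over the class. The part of the cluster sizes in the ratios below was not tested. Of the 42 genes 34 were measured, 7 were higher and 2 were lower in the knock-in library. Among all 14171 genes measured, 15.2% were apart, 7.44% higher and 7.78% lower. The median log2 ratio was 0.03 for the 34 genes and -0.07 for all genes. Lama2, with 25589 knock-in and 54083 wild-type UMIs, had a log2 ratio of -0.29 (-0.32 to -0.27), and Itgbl1, a gene for a secreted protein with integrin-like repeats, had 666 CPM in knock-in and 859 CPM in wild-type cells and a log2 ratio of -0.37 (-0.39 to -0.34). Itgb5, which pairs with alpha v, was at 217 CPM in knock-in and 290 CPM in wild-type cells, a log2 ratio of -0.42 (-0.46 to -0.38). Over the alternatives the signs of Lama2 (-0.34 to 0.06) and Itgbl1 (-0.46 to 0.02) were not kept, while Itgb5 stayed below 0 (-0.51 to -0.19). Of the laminin genes Lamc1 and Lama4 differed least, with log2 ratios of 0.03 (-0.01 to 0.07) and 0.01 (-0.06 to 0.08). For Lama4 the sexes went opposite ways: the female ratio was -0.11 (-0.23 to -0.003), the male ratio 0.15 (0.05 to 0.25). Over the alternatives Lama4 ran from -0.26 to 0.45 and Lamc1 from -0.08 to 0.15.

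Lamc3 was the gene apart above 20 CPM in fibroblast-like cells. It had 858 UMIs (25.7 CPM) in knock-in and 806 UMIs (14.0 CPM) in wild-type cells, a log2 ratio of 0.88 (0.74 to 1.02). In the cluster led by Pex5l and Fmod it was at 42.3 CPM in the knock-in and 24.5 CPM in the wild-type library, and in the cluster led by Bace2 and Entpd2 at 12.1 CPM in the knock-in and 5.56 CPM in the wild-type library. Female cells gave 1.63 and male cells 0.69, and with each library clustered on its own the ratio was 1.92, while at Leiden resolution 1.0, where 1799 knock-in and 2388 wild-type cells kept the name, the ratio was 0.32.

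The other 8 genes apart in fibroblast-like cells were all below 5 CPM, and their values were known when they were picked. Itga7 had 103 UMIs (3.09 CPM) in the knock-in and 45 UMIs (0.782 CPM) in the wild-type library, a log2 ratio of 1.98 (1.46 to 2.52), and Itga10, a collagen receptor subunit, 93 UMIs (2.79 CPM) in the knock-in and 80 UMIs (1.39 CPM) in the wild-type library, a log2 ratio of 1.00 (0.56 to 1.45). SMC markers in fibroblast-like cells summed to 818 CPM in the knock-in and 471 CPM in the wild-type library, with 6 of 9 higher. Their part was not tested, and with free RNA subtracted the ratio of Itga7 was 1.84 and that of Itga10 0.98. Over all alternatives the ratio of Itga7 ran between 1.22 (cells of 8000 to 20000 UMIs) and 3.11 (each library clustered on its own), with 1.29 in female and 2.65 in male cells. Lama3 was lower, with 59 UMIs (1.77 CPM) in the knock-in and 237 UMIs (4.12 CPM) in the wild-type library, a log2 ratio of -1.22 (-1.66 to -0.80), and Itga3 with 71 UMIs (2.13 CPM) in the knock-in and 195 UMIs (3.39 CPM) in the wild-type library, a log2 ratio of -0.67 (-1.08 to -0.27). Mesothelial markers moved with this pair: all 6 were lower, and they summed to 0.389 CPM in the knock-in and 27.6 CPM in the wild-type library, where none was at 0. Their part in the ratios of Lama3 and Itga3 was not tested. With each library clustered on its own the ratio of Lama3 was -0.12 and that of Itga3 was 0.58. Itgb4 had 31 UMIs in knock-in and 30 in wild-type cells, Itgae 38 in each library, Itgb6 44 in knock-in and 45 in wild-type cells, and Lamb3 27 in knock-in and 31 in wild-type cells, with log2 ratios from 0.59 (Lamb3) to 0.83 (Itgb4). The interval of Lamb3 includes 0 (-0.21 to 1.38), and in male cells its ratio was -0.01. That of Itgae was 0.32 among cells of 8000 to 20000 UMIs.

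Over all kept cells, without regard to class, more genes were apart. Of the 42 genes 38 were measured, and 13 were higher and 7 lower in the knock-in library. Among all 16101 genes measured, 28.5% were apart, 13.7% higher and 14.8% lower. Itga8 was at 945 CPM over all knock-in cells and 223 CPM over all wild-type cells, a log2 ratio of 2.08 (2.06 to 2.11), against 0.08 within SMC-like cells. Itga7 had a ratio of 2.50 over all cells against 0.04 within SMC-like cells, and Lama5 had 1.44 over all cells against -0.14 within them. The opposite sign was found for Itga2 and Itga11, both higher in fibroblast-like than in SMC-like cells: Itga2 had -1.09 over all cells against -0.37 within fibroblast-like cells, and Itga11 had -0.95 over all cells against -0.16 within them. Lamc3, also higher in fibroblast-like cells, had 0.85 over all cells and 0.88 within fibroblast-like cells. SMC-like cells made up 38.2% of the knock-in and 6.66% of the wild-type cells.

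**Figure D4:**
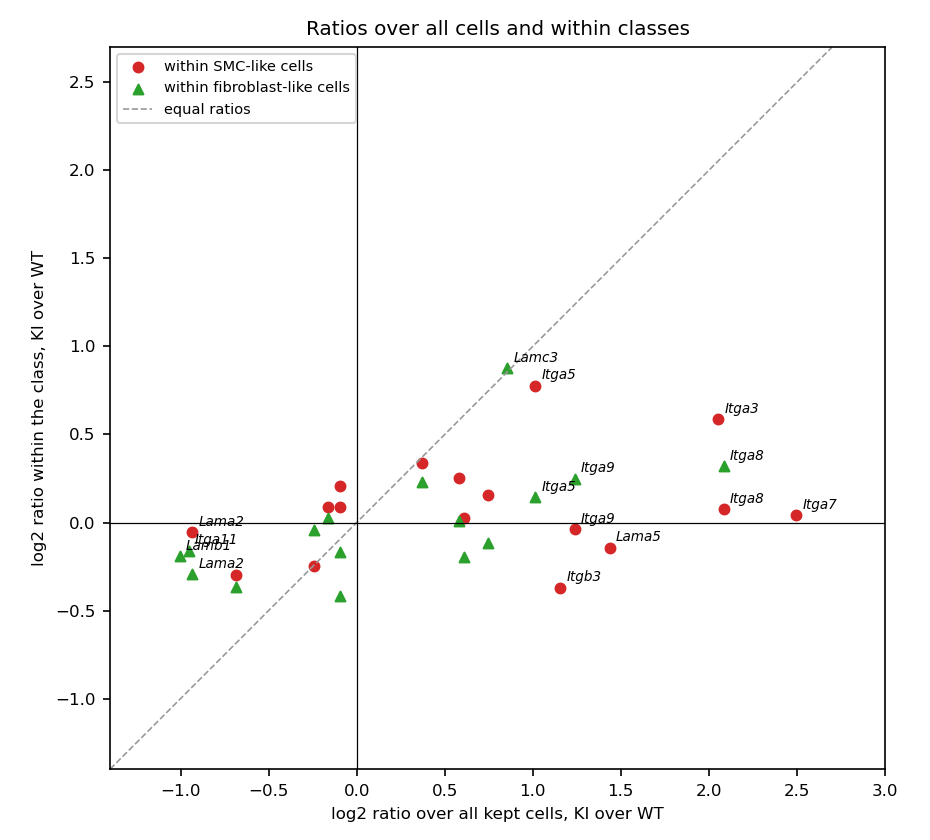
Each point is 1 integrin or laminin gene of at least 20 CPM in the class, with its log2 ratio (knock-in over wild-type) across all kept cells on the x axis and within SMC-like (circles) or fibroblast-like cells (triangles) on the y axis; the dashed line marks equal ratios. Itga7, Itga8 and Lama5 lie far right and near 0 in height within SMC-like cells, while Lamc3 within fibroblast-like cells lies on the line.

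In macrophage or monocyte-like cells 14 of the 42 genes were measured, 1 was higher and 0 were lower in the knock-in library. Of the 9122 genes measured 11.1% were apart, 5.39% higher and 5.76% lower. The myeloid integrin subunits Itgam, Itgb2 and Itga4 were under 1.5-fold apart, each higher in the knock-in library. Itgam had a log2 ratio of 0.38 (0.24 to 0.52), Itgb2 of 0.35 (0.19 to 0.52), and Itga4, at 111 CPM in knock-in and 89.8 CPM in wild-type cells, of 0.31 (0.11 to 0.52). Over the alternatives Itgam ran from -0.003 to 0.70, Itgb2 from 0.22 to 0.42 and Itga4 from 0.25 to 0.36. Itga5 was at 104 CPM in knock-in and 129 CPM in wild-type cells, Itga9 at 149.6 CPM in knock-in and 155 CPM in wild-type cells, and Itgb1 at 388 CPM in knock-in and 377 CPM in wild-type cells. The 1 gene apart was Itga8, with 43 UMIs (12.8 CPM) in the knock-in and 24 UMIs (5.09 CPM) in the wild-type library, where free RNA alone would give 10.2 CPM in the knock-in and 2.95 CPM in the wild-type library. With free RNA subtracted its log2 ratio was 0.29. Of the laminin chains, Lamc1 alone passed 20 CPM there, at 48.6 CPM in knock-in and 33.96 CPM in wild-type cells. SMC markers in these cells summed to 203 CPM in the knock-in and 89.4 CPM in the wild-type library, and all 4 measured were higher. Cycling markers summed to 277 CPM in the knock-in and 404 CPM in the wild-type library, with 5 of 7 lower. Erythroid markers summed to 912 CPM in the knock-in and 0.425 CPM in the wild-type library, and their part in these ratios was not tested.

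Endothelial-like cells were few, and 16 of the 42 genes were measured, of which 1 was higher and 1 was lower in the knock-in library. Of all 4548 genes measured 19.3% were apart, 7.85% higher and 11.5% lower. The receptor pair for laminin, Itga6 and Itgb4, was at 36.9 CPM and 165 CPM in knock-in cells and at 43.9 CPM and 116 CPM in wild-type cells. Itga5 was at 182 CPM in knock-in and 166 CPM in wild-type cells. Of the laminin chains, Lamb2 was at 249.5 CPM in knock-in and 175 CPM in wild-type cells, Lamc1 at 111 CPM in knock-in and 86.7 CPM in wild-type cells, Lama4 at 108 CPM in knock-in and 80.0 CPM in wild-type cells, and Lamb1 at 47.7 CPM in knock-in and 37.2 CPM in wild-type cells. Itga9 was higher, with 180 UMIs (391 CPM) in the knock-in and 215 UMIs (242 CPM) in the wild-type library, a log2 ratio of 0.69 (0.40 to 0.98). Itgav, the alpha v subunit, was lower, with 19 UMIs (41.2 CPM) in the knock-in and 68 UMIs (76.6 CPM) in the wild-type library, a log2 ratio of -0.89 (-1.71 to -0.14). In cells thinned to 5000 UMIs each, Itgav was found in 25.6% of 39 knock-in and 25.0% of 60 wild-type cells. For Itga9 the shares were 79.5% and 66.7%. Markers of lymphatic endothelium in endothelial-like cells summed to 102 CPM in the knock-in and 883 CPM in the wild-type library. SMC markers summed to 592 CPM in the knock-in and 1328 CPM in the wild-type library, and macrophage or monocyte markers to 10.8 CPM and 85.6 CPM. Free RNA was estimated at 0.519% of knock-in and 2.49% of wild-type UMIs. The part of these values in the ratios of Itga9 and Itgav was not tested.

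The 5 Itg symbols that are no subunits had their own patterns. Itgbl1 was highest in fibroblast-like cells, and in SMC-like cells it was at 331.8 CPM in the knock-in and 408 CPM in the wild-type library. Itgb1bp1, whose product binds the tail of integrin beta 1, was between 28.0 and 53.8 CPM in all 4 classes. Itgb3bp, a centromere protein gene despite its name, was highest in the dividing cells led by Prc1 and Ube2c, at 72.3 CPM in 27 knock-in cells and 63.2 CPM in 104 wild-type cells. Itgb1bp2 and Itgb2l belonged to the 4 genes with the fewest UMIs, together with Itgad and Lama1. Over all cells Itgb2l had 0 UMIs in both libraries, Itgad 0 in the knock-in and 5 in the wild-type, Lama1 7 in the knock-in and 0 in the wild-type, and Itgb1bp2 23 in the knock-in and 20 in the wild-type.

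Genes that work with integrins and laminins were counted from 4 lists. In SMC-like cells, of 19 measured genes of the adhesion complex inside the cell, 2 were higher and 1 was lower, with a median log2 ratio of 0.10. These are 15.8% apart, against 15.7% of all genes measured there. Flna, for the actin crosslinker filamin A, which binds integrin tails, was at 2471 CPM in knock-in and 1542 CPM in wild-type cells, a log2 ratio of 0.68 (0.64 to 0.72), and Tns2, for a tensin, had 1.09 (0.86 to 1.33). Of 14 measured matrix or cell surface ligands, 2 were higher and 2 were lower (28.6% apart), with a median of -0.17. Vcam1, a ligand of the alpha 4 and alpha 9 integrins, was at 16.04 CPM in knock-in and 7.07 CPM in wild-type cells, a log2 ratio of 1.18 (0.66 to 1.75). Spp1, for osteopontin, had 50 UMIs in knock-in cells and 0 in wild-type cells, which allows up to 0.663 CPM there. Thbs1, for thrombospondin 1, was lower with a log2 ratio of -2.67 (-3.18 to -2.16), as was Col1a1 with -0.72 (-0.75 to -0.69). Npnt, for nephronectin, a leading gene of these cells, had 1112 CPM in the knock-in and 900 CPM in the wild-type library, a log2 ratio of 0.31 (0.26 to 0.35). Of 9 basement membrane partners of laminin 1 was lower (Nid2, -1.17), and of 14 laminin receptors other than integrins 0 were apart.

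In fibroblast-like cells the ligand list held the most genes apart, 2 higher and 3 lower of 14 measured (35.7% apart, against 15.2% of all genes measured), with a median log2 ratio of -0.33. Tnc, for tenascin-C, was at 24.9 CPM in knock-in and 79.8 CPM in wild-type cells, a log2 ratio of -1.68 (-1.79 to -1.57). Thbs1 had -0.85 (-0.97 to -0.73) and Fbln5, for a protein of elastic fibres, -0.61 (-0.63 to -0.59). Vcam1 had 132 CPM in the knock-in and 82.1 CPM in the wild-type library, a log2 ratio of 0.68 (0.62 to 0.74). Npnt was at 10.0 CPM in knock-in and 1.82 CPM in wild-type cells. The SMC markers in these cells were higher as well, as given above, and their part in this value was not tested. Of 21 adhesion complex genes 1 was lower (Parvb), and of 9 basement membrane partners 0 were apart.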

How the data were processed

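The deposited values are UMI counts per gene and barcode over all barcodes (authors' matrices), and the submitters' processing notes name Cell Ranger 7.1.0. The genome build was not given in the sources used here. A barcode counted as a cell from 1000 UMIs and 500 genes upward, unless over 10% of its UMIs were mitochondrial. The highest-scoring scrublet cells, 0.8% per 1000 cells, were removed as doublets (330 knock-in, 109 wild-type). Both libraries were clustered together without integration in scanpy 1.11.5: 2000 variable genes, left free of integrins, laminins, Mgp and genes that are mitochondrial, ribosomal, for hemoglobin or sex-linked, 30 components, 15 neighbours and Leiden resolution 0.5. Clusters were named from 21 marker lists by the mean log2 gain of the markers, and stayed unnamed where a second list passed 0.65 of the best score or led the top genes. UMIs were summed per library and class. Intervals are exact Poisson (levels), exact conditional binomial (ratios) and Clopper-Pearson (shares). The ratio step was tested on simulated counts. A count of 0 allows up to 3 counts.

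The genes and lists were chosen with earlier results of these data known. Genes to name were taken from those with at least 50 UMIs and 20 CPM in a class of at least 100 cells, or 50 UMIs in smaller classes. From the 4 lists of partner genes at most 4 each were to be named, by UMIs or by ratio. More than that were named from the ligand list. Other genes named in SMC-like, fibroblast-like and macrophage or monocyte-like cells, and the genes named by cluster, were chosen after their values were seen. Alternatives changed cell filters, doublet removal, clustering, depth, sex, the CPM denominator, centring, free RNA and the count minimum. The result of 1 gene of these lists is not reported here.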

Additional observations from a re-analysis of the deposited data

Results flagged for a closer look

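Itga3 went opposite ways in 2 classes. Its log2 ratio of knock-in over wild-type was 0.59 in SMC-like cells (50.9 CPM knock-in, 33.8 CPM wild-type) and -0.67 in fibroblast-like cells (2.13 CPM knock-in, 3.39 CPM wild-type), and the difference was not tested. With each library clustered on its own the ratio in fibroblast-like cells was 0.58.

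Itgb3 was lower in the knock-in library in SMC-like cells, with a log2 ratio of -0.37, and higher in fibroblast-like cells, with 0.29, and the difference was not tested. In fibroblast-like cells of 8000 to 20000 UMIs the ratio was -0.29.

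Itga4 had a log2 ratio of -0.89 in SMC-like cells and of 0.31 in macrophage or monocyte-like cells, and the difference was not tested. Itga5 went the other way, with 0.78 in SMC-like cells and -0.32 in macrophage or monocyte-like cells (104 CPM knock-in, 129 CPM wild-type), and this difference was not tested either.

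Itga1 in fibroblast-like cells differed between the sexes. The log2 ratio was 0.41 (0.28 to 0.54) in 1076 knock-in and 862 wild-type female cells, and -0.37 (-0.48 to -0.25) in 1034 knock-in and 1561 wild-type male cells. Female cells held 66.9 CPM in the knock-in and 50.4 CPM in the wild-type library, and male cells 55.4 CPM in the knock-in and 71.4 CPM in the wild-type library. The difference was not tested, and in fibroblast-like cells of both sexes with 8000 to 20000 UMIs the ratio was 0.46.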

How the results depend on the processing

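Over the alternatives run, the median log2 ratio of the integrins and laminins lay between 0.04 and 0.12 in SMC-like cells, between -0.07 and 0.13 in fibroblast-like cells, where its sign is therefore not set, and between 0.03 and 0.21 in macrophage or monocyte-like cells. The number of these genes apart by 1.5-fold in SMC-like cells, 7, became 4 at resolution 1.0, 3 in male cells and 12 with a count minimum of 10 UMIs. In fibroblast-like cells 9 became 4 in female cells and 3 with a count minimum of 200 UMIs. In macrophage or monocyte-like cells 1 became 2 with a minimum of 2000 UMIs per cell, 2 with at most 5% mitochondrial UMIs, 5 without doublet removal, 4 with the integrins and laminins kept in the clustering, 2 with each library clustered on its own, 0 in female cells, 2 in male cells, 6 with a count minimum of 10, 0 with a count minimum of 200 and 0 with free RNA subtracted. The count minima change which genes are counted; the cause of the other shifts was not tested. Of the single ratios 953 stayed, 165 moved and 2 changed sign past their call, both with each library clustered on its own: Lamc3 in SMC-like cells (-0.77) and Itga3 in fibroblast-like cells (0.58). Further ratios changed sign without being counted among these 2. Examples are Itga6 (-0.41 to 2.47) and Lama5 (-0.55 to 0.20) in SMC-like cells, and Itgb3 (-0.29 to 0.86) and Lama4 (-0.26 to 0.45) in fibroblast-like cells. Adding the cells led by Sncg and Timp4 to the SMC-like class, chosen after seeing the data, gave 7 genes apart and 0.64 for Itga5. No paired analysis was possible because each genotype has 1 library.

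Limits are set by depth in the small groups: 239 wild-type SMC-like cells, and 45 knock-in and 63 wild-type endothelial-like cells. Over all cells the median was 11653 UMIs in the knock-in and 20395.5 UMIs in the wild-type library, and the median mitochondrial share 3.07% in the knock-in and 1.87% in the wild-type library.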

Other observations

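Itga2b, known as the alpha subunit of the platelet integrin, was counted in fibroblast-like cells at 16.1 CPM in the knock-in (537 UMIs) and 12.1 CPM in the wild-type library (696 UMIs), against an expected free RNA level of 0.204 CPM in the knock-in and 0.186 CPM in the wild-type library. The 6 platelet markers in these cells summed to 3.59 CPM in the knock-in and 5.33 CPM in the wild-type library, with Tubb1 at 0 in both.

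Itga10 reached its highest level in the cluster led by Mdga2 and Chrm3, at 30.3 CPM in the knock-in and 11.9 CPM in the wild-type library. In the dividing cells led by Prc1 and Ube2c, Itga8 was at 236 CPM in 27 knock-in cells and 120 CPM in 104 wild-type cells. SMC markers in those cells summed to 5156 CPM in the knock-in and 1232 CPM in the wild-type library, and their part was not tested.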
